A study of Mus musculus with 1483 samples.

Results

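Cortical neurons labelled by the enhancer virus eHGT_019h were set against neurons labelled by the virus hDLXI56i, an enhancer used to mark interneurons of all classes. All cells carrying either genotype label were taken, 270 of the 1483 cells in the series: 128 eHGT_019h cells from 3 mice and 142 hDLXI56i cells from 3 mice. The same comparison was then restricted to cells with Lamp5 at 100 CPM or more and Adarb2 at 10 CPM or more, where CPM are counts per 1000000 reads of a cell. The restricted set holds 102 eHGT_019h cells and 53 hDLXI56i cells. All 6 mice were C57Bl/6J by their labels, the tissue is labelled VISp (the primary visual area), and in both groups the cells were sorted one at a time for SYFP2, the yellow fluorescent protein that the virus drives. The groups therefore differ, by their labels, in the enhancer alone. Sorting picks out cells in which the virus made enough SYFP2, so a share of sorted cells is not a share of the tissue. The labels used here state no age, virus dose or route of delivery. The mouse was the replicate. The mice of each group are called mouse 1, 2 and 3 in the order of their labelled mouse numbers, which is also the order in which values are listed.

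Cortical inhibitory neurons release GABA and fall into a few large classes. Those from the medial ganglionic eminence, an embryonic progenitor zone, keep the transcription factors Lhx6, Sox6 and Satb1 and include the Pvalb and Sst classes. Those from the caudal ganglionic eminence express Adarb2, which encodes a brain RNA-binding protein of the adenosine deaminase family, and include the Vip, Sncg and Lamp5 classes. Lamp5 encodes a membrane protein of the lysosome family, and its class holds neurogliaform cells, many of which lie in layer 1 and express Ndnf, a secreted factor. A small part of the Lamp5 class expresses Lhx6 as well. The DLX transcription factors act in GABAergic neurons of the forebrain, which is why a DLX enhancer labels interneurons broadly. In mm10, on the GENCODE M21 annotation, Lamp5 lies on chromosome 2 from 136052239 to 136069917, Adarb2 on chromosome 13 from 8202866 to 8768747, Ndnf on chromosome 6 from 65671590 to 65712326 and Pvalb on chromosome 15 from 78191114 to 78206400.

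Depth was alike in both groups. The median cell had 579237 reads and 8986 genes among eHGT_019h cells, and 576679 reads and 8788 genes among hDLXI56i cells. Fewer than 100000 reads were found in 3 eHGT_019h cells and 2 hDLXI56i cells. The shallowest cell, of eHGT_019h mouse 2, had 833 reads, so that 1 read in it is 1200 CPM. The cell descriptions of each of the 6 mice start with a prefix of their own. The labels used here do not say what the prefix stands for, and prefix and mouse cannot be told apart. The mice also differed in ways that the labels do not give. Xist averaged 40.05 CPM in hDLXI56i mouse 2 and at most 0.0492 CPM in the other 5 mice, with the Y-linked gene Ddx3y the other way round. Gt(ROSA)26Sor, the non-coding transcript of the locus often used to insert transgenes in mice, averaged 1.73 and 2.002 CPM in hDLXI56i mice 1 and 2. It averaged 42.7 to 83.2 CPM in the other 31 mice of the series, among them 64.1, 54.0 and 47.9 CPM in the eHGT_019h mice and 54.1 CPM in hDLXI56i mouse 3. Results are therefore also given without those 2 mice, which leaves 1 hDLXI56i mouse that is assumed to vary like the others. The cause of the difference was not tested.

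Most eHGT_019h cells, and a minority of hDLXI56i cells, expressed Lamp5 and Adarb2 together. The share of restricted cells was 93.8%, 77.1% and 66.7% in the eHGT_019h mice and 46.8%, 37.5% and 27.7% in the hDLXI56i mice. The groups did not overlap, and averaged 79.2% ± 13.7 in eHGT_019h mice and 37.3% ± 9.58 in hDLXI56i mice (SD, n = 3 mice each). The difference of 41.9 percentage points gave p = 0.1 in a 2-sided exact permutation test, the smallest p that 3 against 3 mice allow. Over the 27 mice of the other 9 enhancers, 23 of 1213 cells met the same definition, and 16 of those mice had no such cell.

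**Figure D1:**
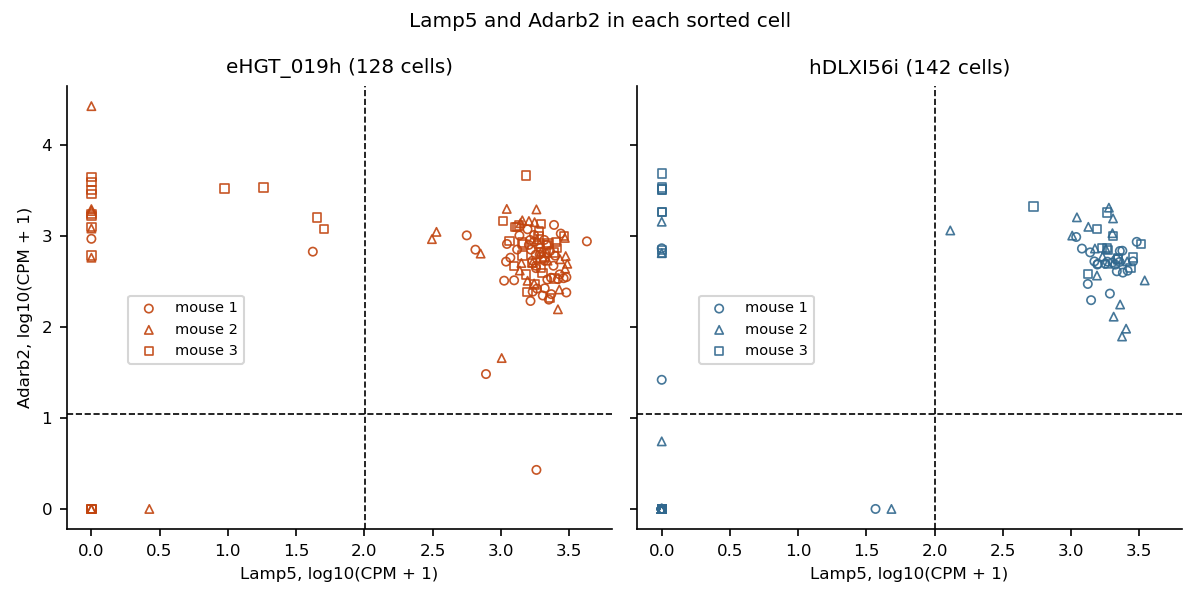
Lamp5 (x axis) and Adarb2 (y axis) in every cell, both as log10(CPM + 1), with 1 symbol per mouse, eHGT_019h in the left panel and hDLXI56i in the right; dashed lines are the thresholds of 100 and 10 CPM. Cells above both lines number 102 of 128 for eHGT_019h and 53 of 142 for hDLXI56i, and few cells lie near a line.

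The thresholds cut through a nearly empty range. No cell of either group had Lamp5 between 50 and 100 CPM, and 1 hDLXI56i cell had it between 100 and 200 CPM. The lowest Lamp5 value inside the restricted set was 312 CPM among eHGT_019h cells and 129 CPM among hDLXI56i cells. The highest Lamp5 value outside it, among cells with Adarb2, was 49.7 CPM for eHGT_019h and 0 for hDLXI56i. A single eHGT_019h cell had Lamp5 above the threshold and Adarb2 below it, at 1.68 CPM.

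Cells of the other lineage were frequent in hDLXI56i mice. Cells with Lhx6 at 10 CPM or more but no Adarb2 at that level numbered 5 of 128 for eHGT_019h and 75 of 142 for hDLXI56i. They were 4.13% ± 3.61 of an eHGT_019h mouse's cells and 52.8% ± 3.67 of an hDLXI56i mouse's cells (SD, n = 3 mice each). Cells with Adarb2 and no Lhx6 were 89.4% ± 5.59 in eHGT_019h mice and 45.1% ± 3.65 in hDLXI56i mice. Cells with both numbered 6 for eHGT_019h and 1 for hDLXI56i.

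Pvalb, a calcium-binding protein of fast-spiking interneurons, reached 10 CPM in 8.33%, 8.57% and 17.8% of the cells of eHGT_019h mice and in 48.9%, 47.9% and 40.4% of the cells of hDLXI56i mice. Sst, the neuropeptide somatostatin, reached it in 2.08%, 5.71% and 4.44% of the cells of eHGT_019h mice and in 12.8%, 25% and 40.4% of the cells of hDLXI56i mice. Both markers separated the groups of mice without overlap. Ndnf reached 10 CPM in 31.3%, 54.3% and 37.8% of the cells of eHGT_019h mice and in 8.51%, 12.5% and 19.1% of the cells of hDLXI56i mice, again without overlap. Vip, which encodes vasoactive intestinal peptide, overlapped, at 6.25%, 8.57% and 20% in eHGT_019h mice and 0%, 4.17% and 14.9% in hDLXI56i mice. Sncg, the marker of a cannabinoid receptor-rich class, stayed between 2.08% and 5.71% in eHGT_019h mice and between 0% and 2.13% in hDLXI56i mice. Of the 10 markers compared, the 7 whose groups did not overlap (Lamp5, Adarb2, Ndnf, Pvalb, Sst, Lhx6 and Slc17a7) each had an exact permutation p of 0.1, or 0.143 after Benjamini-Hochberg adjustment over the 10.

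Gad1, which encodes a GABA-synthesizing enzyme, reached 10 CPM in 126 of 128 eHGT_019h cells and in all 142 hDLXI56i cells. Slc17a7, which loads glutamate into the synaptic vesicles of excitatory neurons, reached it in 14.6%, 40% and 15.6% of the cells of eHGT_019h mice and in 2.13%, 0% and 4.26% of the cells of hDLXI56i mice. The groups of mice did not overlap. Of the 28 eHGT_019h cells concerned, 27 also had Gad1, and the median Slc17a7 level in the 28 was 31.4 CPM. The 3 hDLXI56i cells concerned had a median of 38.3 CPM. At a threshold of 100 CPM, 3 eHGT_019h cells and 0 hDLXI56i cells remained.

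**Figure D2:**
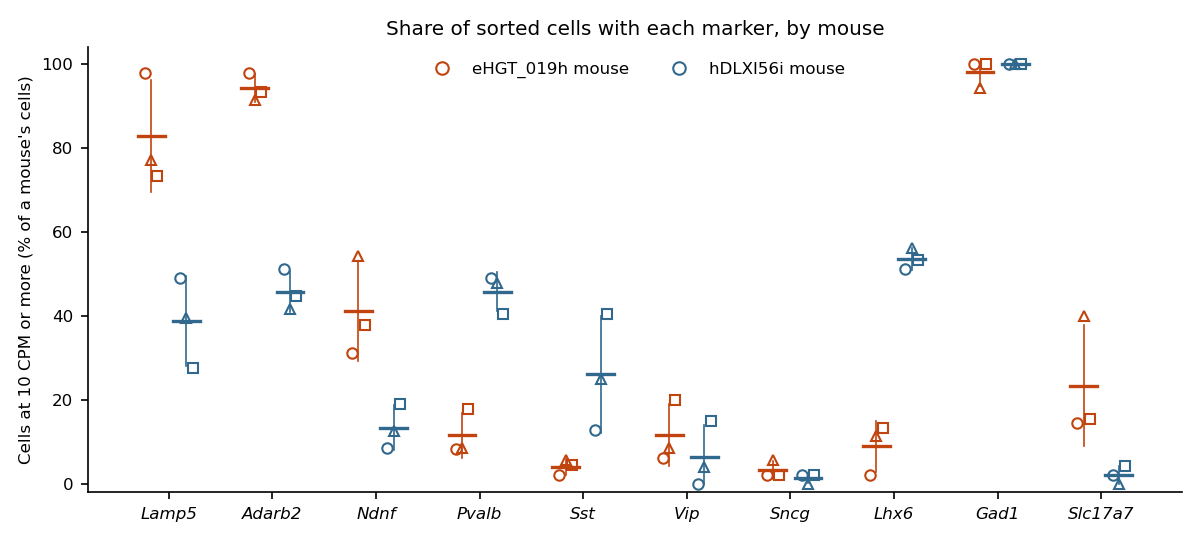
Percentage of each mouse's cells (y axis) with a marker at 10 CPM or more, for 10 markers (x axis), eHGT_019h to the left of hDLXI56i; symbols are mice, horizontal bars group means and vertical lines 1 SD, drawn within 0 and 100%. Lamp5, Adarb2, Ndnf and Slc17a7 are higher and Pvalb, Sst and Lhx6 lower in all 3 eHGT_019h mice, while Vip, Sncg and Gad1 overlap.

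The cells outside the restricted set are described by counts pooled over mice, with no test. They numbered 3, 8 and 15 in eHGT_019h mice and 25, 30 and 34 in hDLXI56i mice. Of the 26 eHGT_019h cells, 13 had Vip at 1000 CPM or more (1, 3 and 9 by mouse), 2 had Pvalb and 1 had Sst at that level. Of the 89 hDLXI56i cells, 9 had Vip at 1000 CPM or more (0, 2 and 7 by mouse). At that level 32 had Pvalb (17, 13 and 2) and 33 had Sst (5, 11 and 17). Mouse 3 of each group held most of its Vip cells. Adarb2 without Lhx6 was seen in 18 of the 26 eHGT_019h cells and in 11 of the 89 hDLXI56i cells. In 1 of the eHGT_019h cells Slc17a7 was present with neither Gad1 nor Gad2.

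Averaged over all cells of a mouse, 494 of 15768 genes tested differed between the enhancers, or 3.13%. Of these, 131 were higher in eHGT_019h mice (0.831% of the genes tested) and 363 lower (2.3%). A gene was called at a limma adjusted p under 0.05 and a difference of at least 1 on the log2 scale, where values are log2(mean CPM + 1) and differences of low genes are understated. The fit held all 33 mice of the series, which share the estimate of spread. With the 6 mice alone, limma called 112 genes, 27 higher and 85 lower. The median difference over all genes tested was 0.00. Averaging log2 values over cells in place of CPM turned the balance round, to 338 higher and 187 lower in eHGT_019h mice, and limma voom on the summed reads gave 115 higher and 192 lower. Without hDLXI56i mice 1 and 2, 41 genes were called higher and 192 lower.

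Transcription factors of the medial eminence lineage were lower in eHGT_019h mice. Satb1, a chromatin organizer needed for the maturation of Sst neurons, stood at 7.70, 14.9 and 16.2 CPM in eHGT_019h mice and 90.5, 197 and 303 CPM in hDLXI56i mice. Every eHGT_019h mouse lay far below every hDLXI56i mouse, and the log2 difference was -3.72 (SE 0.29, limma adjusted p = 2.95e-09). Sox6, which is required for the positioning and differentiation of medial eminence interneurons, stood at 4.42, 11.8 and 11.3 CPM in eHGT_019h mice and 94.8, 111 and 81.0 CPM in hDLXI56i mice. Its groups were also far apart, with a log2 difference of -3.34 (SE 0.54, limma adjusted p = 0.000422). Of the 5 genes in the medial eminence list, 3 fell, beside 2.3% called lower over all genes, and the list's median was -1.96.

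Lhx6 itself was not called. Its means were 0.467, 153 and 28.4 CPM in eHGT_019h mice and 59.7, 58.3 and 107 CPM in hDLXI56i mice, and the groups overlapped through eHGT_019h mouse 2. That mouse's value rested on the shallowest cell, in which 4 reads of Lhx6 count as 4802 CPM. Without that cell the mouse stood at 16.4 CPM and Lhx6 was called lower, with a log2 difference of -3.01 (limma adjusted p = 0.0093) against -1.96 with it (adjusted p = 0.23). Without the whole mouse the difference was -3.47 (adjusted p = 0.00915), and without eHGT_019h mouse 1 it was -0.12 (adjusted p = 0.922).

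The 4 largest falls among the named genes were in neuropeptide precursors. Sst averaged 0.828, 0.833 and 189 CPM in eHGT_019h mice and 1514, 3279 and 3834 CPM in hDLXI56i mice. In eHGT_019h mouse 3, 1 cell had Sst above 1000 CPM. The groups did not overlap, and the log2 difference was -8.28 (SE 1.96, limma adjusted p = 0.0145). Pdyn, the dynorphin precursor, was at 0 in all 3 eHGT_019h mice and at 53.8, 187 and 302 CPM in hDLXI56i mice (limma adjusted p = 0.0045). Cartpt, the precursor of the CART peptides, stood at 0, 1.68 and 5.31 CPM in eHGT_019h mice and 50.2, 185 and 91.6 CPM in hDLXI56i mice (log2 difference -5.22, SE 0.87, limma adjusted p = 0.000654). Tac1, the precursor of substance P, and Crhbp, which binds corticotropin-releasing hormone, also fell. Of 15 neuropeptide list members tested, these 5 fell and none rose, beside 2.3% called lower and 0.831% called higher over all genes, and the median was -0.83. Npy, neuropeptide Y, overlapped between the groups, at 24702, 7985 and 11364 CPM in eHGT_019h mice and 18860, 19374 and 6572 CPM in hDLXI56i mice.

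Other genes among the 12 leading ones on the lower side were Lgals1, a galactose-binding lectin, at 6.08 ± 4.36 CPM in eHGT_019h mice and 199 ± 85.5 CPM in hDLXI56i mice, and Rbp4, the plasma carrier of retinol, at 32.8 ± 26.3 CPM in eHGT_019h mice and 371 ± 181 CPM in hDLXI56i mice. Spon1, a secreted matrix protein, Tcap, a muscle protein of the sarcomere, Mybpc1, a myosin-binding protein, and Prss23, a secreted protease, completed it. Their log2 differences lay between -4.44 and -3.49. In the Sst class list, Elfn1, a synaptic adhesion protein that sets facilitating input onto Sst neurons, stood at 2.38 ± 1.91 CPM in eHGT_019h mice and 22.8 ± 6.66 CPM in hDLXI56i mice (log2 difference -3.01, SE 0.58, limma adjusted p = 0.00208). With Sst, Hpse and Crhr2 it made 4 of 6 tested members that fell, beside 2.3% over all genes, and the median was -2.18. Crhr2, a receptor of the same hormone family that Crhbp binds, lost its call without eHGT_019h mouse 1 or 2 or hDLXI56i mouse 2 or 3. In the fit of the 6 mice alone, Hpse and Crhr2 were not called (limma adjusted p = 0.1 and 0.28), and without cells with Slc17a7 Crhr2 was not (0.2).

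On the higher side were a receptor, a secreted factor and a transcription factor. Hrh1, the histamine H1 receptor, stood at 19.3, 45.7 and 22.5 CPM in eHGT_019h mice and 0.548, 2.33 and 9.55 CPM in hDLXI56i mice. The lowest eHGT_019h mouse was above the highest hDLXI56i mouse, with a log2 difference of 2.89 (SE 0.54, limma adjusted p = 0.00114). Ndnf stood at 101, 344 and 239 CPM in eHGT_019h mice and 29.4, 28.7 and 89.6 CPM in hDLXI56i mice, a narrow separation (log2 difference 2.23, SE 0.57, limma adjusted p = 0.0188). Pbx3, a homeodomain transcription factor, stood at 40.96, 27.1 and 28.6 CPM in eHGT_019h mice and 9.69, 9.24 and 9.43 CPM in hDLXI56i mice (log2 difference 1.64, SE 0.35, limma adjusted p = 0.00475). Dio2, which activates thyroid hormone, had the largest rise by this rule, a log2 difference of 3.18 (SE 0.55, limma adjusted p = 0.000489), from 19.6, 145 and 10.2 CPM in eHGT_019h mice and 4.29, 3.29 and 0.998 CPM in hDLXI56i mice. The value of eHGT_019h mouse 2 stands out, and 4 reads of the shallowest cell make up most of it. With that cell left out, all 3 eHGT_019h mice were under the 20 CPM that the choice of leading genes asks for. Mouse 2 then stood at 7.82 CPM. Without that mouse the difference was 2.09. Without the shallowest cell it was 1.83, and Dio2 was still called.

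The remaining leading genes on the higher side included signalling molecules and matrix proteins. Egfr, the epidermal growth factor receptor, averaged 106 ± 39.4 CPM in eHGT_019h mice and 30.5 ± 2.88 CPM in hDLXI56i mice. Kitl, the ligand of the receptor Kit, averaged 35.1 ± 10.6 CPM in eHGT_019h mice and 9.52 ± 2.88 CPM in hDLXI56i mice. Hapln1, a link protein of the hyaluronan matrix, averaged 424 ± 67.3 CPM in eHGT_019h mice and 142 ± 36.3 CPM in hDLXI56i mice (SD, n = 3 mice each). Eps8, a regulator of actin, Apbb1ip, an adaptor in integrin activation, Kcnn3, a calcium-activated potassium channel, and Sh3bgrl also rose, with log2 differences between 1.56 and 2.11. Kcnn3 was not called without the shallowest cell (log2 difference 1.22, limma adjusted p = 0.156) or without cells of under 100000 reads (1.23, adjusted p = 0.147). Without cells with Slc17a7 at 10 CPM or more, Kitl, Egfr, Pbx3 and Hapln1 on the higher side, and Tac1, Mybpc1 and Prss23 on the lower side, were not called (limma adjusted p from 0.0604 to 0.164).

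Several of these calls needed all 6 mice. Without eHGT_019h mouse 1, limma no longer called Hapln1, Tac1, Crhbp, Mybpc1 and Prss23 (adjusted p from 0.052 to 0.149). Without eHGT_019h mouse 2, it no longer called Ndnf, Apbb1ip, Kcnn3, Kitl, Egfr, Hapln1, Sst and Mybpc1 (adjusted p from 0.0674 to 0.207). Leaving out eHGT_019h mouse 3 ended the calls of Ndnf, Kitl, Egfr, Hapln1 and Tac1 (adjusted p from 0.0547 to 0.156). Leaving out hDLXI56i mouse 1 ended those of Ndnf, Eps8, Apbb1ip, Kcnn3, Egfr, Hapln1, Tac1 and Mybpc1 (adjusted p from 0.0518 to 0.111). Leaving out hDLXI56i mouse 2 ended those of Ndnf, Kcnn3, Kitl, Egfr, Hapln1, Sh3bgrl, Sst, Tac1, Crhbp and Mybpc1 (adjusted p from 0.0522 to 0.15). Leaving out hDLXI56i mouse 3 ended those of Kitl, Egfr, Hapln1 and Mybpc1 (adjusted p from 0.0507 to 0.0772). Dio2, Hrh1, Pbx3, Pdyn, Cartpt, Lgals1, Spon1, Rbp4, Satb1 and Tcap were called in each of these 6 fits. Of these, Pdyn, Cartpt, Spon1 and Tcap were not called with limma voom on summed reads (adjusted p from 0.0845 to 0.321). Averaging log2 values over cells ended the limma calls of Pdyn, Spon1 and Tcap (adjusted p from 0.0564 to 0.0951). A pseudocount of 0.1 CPM ended that of Dio2 (adjusted p = 0.0511). In the fit of the 6 mice alone, 13 of the 24 leading genes were called. Dio2, Hrh1, Ndnf, Eps8, Kcnn3, Sst, Tac1, Crhbp, Rbp4 and Prss23 were not (adjusted p from 0.0688 to 0.448). Without both hDLXI56i mice low in Gt(ROSA)26Sor, 7 of the 24 were called: Dio2, Cartpt, Lgals1, Spon1, Rbp4, Satb1 and Tcap. In that fit Hrh1, Ndnf, Eps8, Apbb1ip, Kcnn3, Kitl, Egfr, Pbx3, Hapln1, Sh3bgrl, Sst, Tac1, Crhbp, Mybpc1 and Prss23 were not called (adjusted p from 0.108 to 0.576), and Pdyn was too low to be tested.

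**Figure D3:**
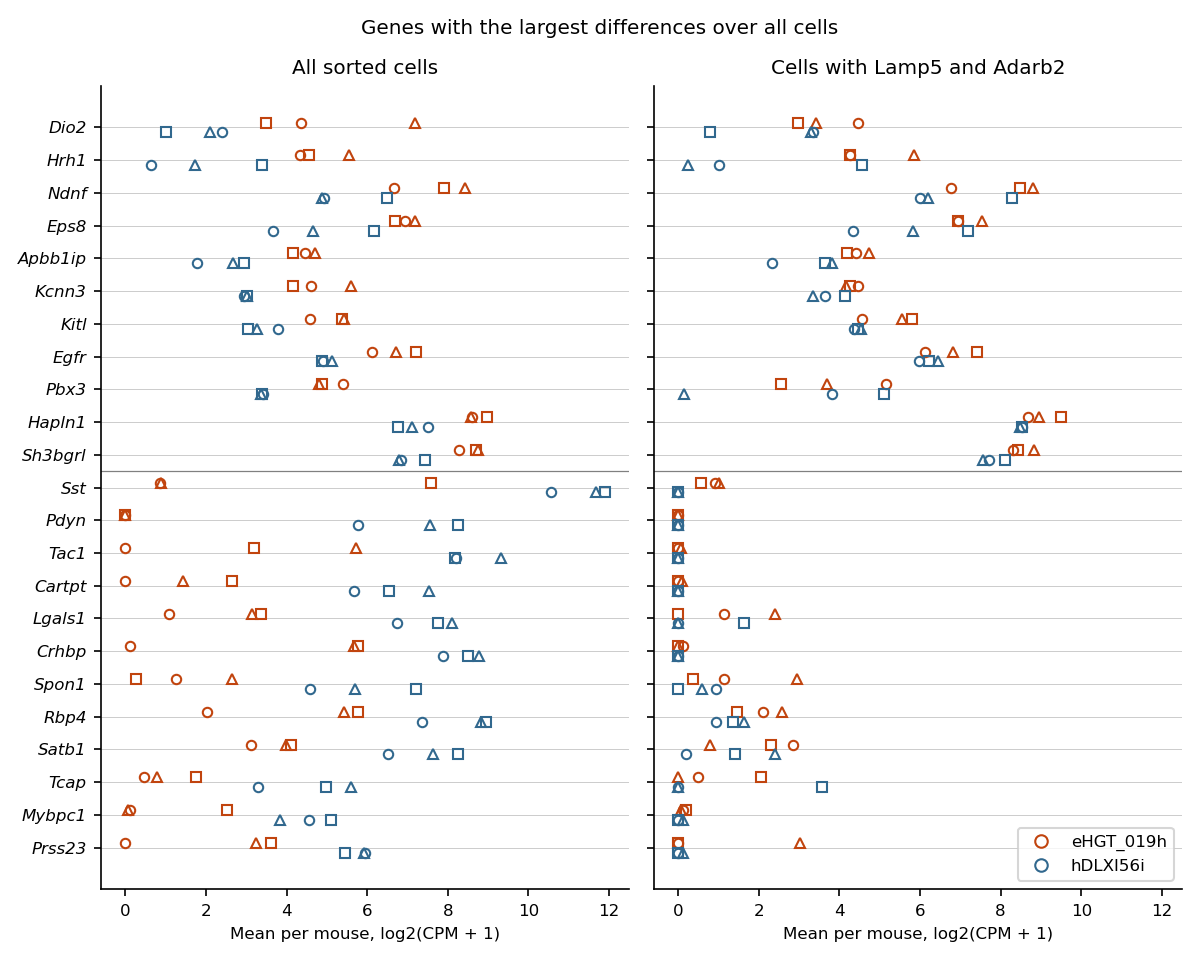
Mean level per mouse, as log2(CPM + 1) on the x axis, of 23 leading genes (y axis; 11 higher above the grey line, 12 lower beneath it) in all cells (left) and in cells with Lamp5 and Adarb2 (right); eHGT_019h is drawn above hDLXI56i for each gene, 1 symbol per mouse. The groups are apart for all 23 genes on the left, where the choice of genes requires it; on the right Sst, Pdyn, Tac1, Cartpt and Crhbp sit near 0 in both groups.

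The 2 genes that define the restricted set were not called over all cells. Lamp5 averaged 1851, 1414 and 1228 CPM in eHGT_019h mice and 909, 691 and 550 CPM in hDLXI56i mice. No mouse of one group reached the range of the other, but the log2 difference of 1.07 had an SE of 1.52 in the fit of all mice (limma adjusted p = 0.75). Adarb2 averaged 573, 1516 and 1233 CPM in eHGT_019h mice and 262, 331 and 662 CPM in hDLXI56i mice, which overlap (log2 difference 1.41, SE 1.17, limma adjusted p = 0.543). The value of 1516 CPM rested in part on the shallowest cell, without which that mouse stood at 784 CPM. When log2 values were averaged over cells, Lamp5 and Adarb2 were both called, with log2 differences of 4.68 and 4.64 (limma adjusted p = 0.000322 and 1.01e-09). Pvalb stood at 2.82, 35.4 and 81.6 CPM in eHGT_019h mice and 1389, 836 and 106 CPM in hDLXI56i mice, with a log2 difference of -4.47 (SE 1.43, limma adjusted p = 0.0708). It passed the threshold without hDLXI56i mouse 3, the lowest of its group (log2 difference -5.58, adjusted p = 0.0227).

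Among the other lists, the voltage-gated potassium channel genes that changed were lower in eHGT_019h mice. Of 24 voltage-gated potassium channel genes tested, 5 fell and none rose in eHGT_019h mice, beside 2.3% called lower over all genes, and the median was -0.27. Kcnc2, the fast delayed rectifier subunit Kv3.2, stood at 31.9, 100 and 157 CPM in eHGT_019h mice and 294, 348 and 446 CPM in hDLXI56i mice (log2 difference -2.15, SE 0.39, limma adjusted p = 0.00121). Kcnip2, an accessory subunit of Kv4 channels, averaged 21.8 ± 3.98 CPM in eHGT_019h mice and 70.4 ± 10.4 CPM in hDLXI56i mice (log2 difference -1.65, SE 0.35, limma adjusted p = 0.00457). Kcna2 and Kcna6, of the Kv1 family, and the accessory subunit Kcnab3 also fell. Without eHGT_019h mouse 1 the calls of Kcna2, Kcna6 and Kcnab3 were lost, at log2 differences of -0.98, -0.98 and -1.37. Kcnab3 also lost its call without eHGT_019h mouse 2 (-1.32) or hDLXI56i mouse 1 (-1.24). In the fit of the 6 mice alone, Kcnc2 and Kcna6 were not called (limma adjusted p = 0.143 and 0.0552). Without both hDLXI56i mice low in Gt(ROSA)26Sor, Kcnip2, Kcna2 and Kcnab3 were not called (0.0945, 0.0797 and 0.25). Kcna2 was at -0.93 without cells with Slc17a7. With log2 values averaged over cells, Kcnip2 was not called (limma adjusted p = 0.0562).

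Receptors and release genes changed singly. Oprd1, the delta opioid receptor, stood at 0.58, 2.43 and 2.79 CPM in eHGT_019h mice and 14.8, 13.4 and 18.7 CPM in hDLXI56i mice (log2 difference -2.59, SE 0.38, limma adjusted p = 5.63e-05). Cckbr, the cholecystokinin B receptor, averaged 4.47 ± 1.88 CPM in eHGT_019h mice and 15.7 ± 6.52 CPM in hDLXI56i mice (log2 difference -1.59, SE 0.28, limma adjusted p = 0.000628). Cckbr was not called in the fit of the 6 mice alone (adjusted p = 0.134) or without cells with Slc17a7 (0.363). These were the 2 of 17 neuropeptide and cannabinoid receptors tested that changed, beside 3.13% of all genes. Of 20 vesicle release genes tested, only Rab3b, a small GTPase of synaptic vesicles, changed, a share near the 3.13% of all genes. Rab3b stood at 670, 424 and 479 CPM in eHGT_019h mice and 1224, 1591 and 1125 CPM in hDLXI56i mice (log2 difference -1.33, SE 0.23, limma adjusted p = 0.000471). Its call was lost without both hDLXI56i mice low in Gt(ROSA)26Sor (0.0809). Its relative Rab3c stood at 1204, 1198 and 1429 CPM in eHGT_019h mice and 705, 587 and 780 CPM in hDLXI56i mice, a log2 difference of 0.89 (SE 0.17, limma adjusted p = 0.002) that falls short of the size threshold. Slc30a3, a vesicular zinc transporter, averaged 15.4 ± 11.8 CPM in eHGT_019h mice and 74.5 ± 41.7 CPM in hDLXI56i mice (log2 difference -2.40, SE 0.39, limma adjusted p = 0.000422), and was not called in the fit of the 6 mice alone (0.167). Ifit3, an interferon-induced gene, was the 1 called of 4 tested in its list, beside 3.13% of all genes. It fell to 0, 1.10 and 1.94 CPM in eHGT_019h mice, against 11.5, 10.5 and 19.01 CPM in hDLXI56i mice (limma adjusted p = 0.000896). Ifit3 was not called with limma voom on summed reads (adjusted p = 0.0996). With log2 values averaged over cells, Ifit3, Rab3b and Cckbr were not called (limma adjusted p = 0.0609, 0.346 and 0.288).

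Of 12 GABA-A receptor subunits tested, none rose by the size threshold, and 1, Gabra3, fell, beside 2.3% called lower over all genes, and the list's median was 0.47. Gabra3 averaged 30.4 ± 15.97 CPM in eHGT_019h mice and 62.8 ± 35.5 CPM in hDLXI56i mice, with overlap (log2 difference -1.02, SE 0.30, limma adjusted p = 0.0409). Its call was lost without eHGT_019h mouse 1 or 3, or hDLXI56i mouse 1 or 3, with log2 differences from -1.39 to -0.57 over the fits without 1 mouse. Gabra4 had a log2 difference of 0.66, under the size threshold, with limma adjusted p = 0.0239. Of 18 serotonin and acetylcholine receptors, Htr2a rose and Chrm2 fell, beside 0.831% called higher and 2.3% called lower over all genes. Htr2a lost its call without eHGT_019h mouse 2 or 3 or hDLXI56i mouse 1 or 2 (lowest log2 difference 0.83), and Chrm2 without eHGT_019h mouse 2 or 3 or hDLXI56i mouse 2 or 3 (between -3.10 and -2.16). Among 9 matrix net genes tested, Hapln1 rose and Bcan, brevican, fell, beside the same shares over all genes. Both calls were lost in 5 or more of the 6 fits that leave out 1 mouse. In the fit of the 6 mice alone, Gabra3, Htr2a, Chrm2 and Bcan were not called (limma adjusted p from 0.0674 to 0.438). Without both hDLXI56i mice low in Gt(ROSA)26Sor, Htr2a, Chrm2 and Bcan were not (0.0665 to 0.675). No gene was called among 5 of GABA synthesis and transport, 7 DLX and pan-interneuron regulators, 6 of the caudal eminence lineage, 4 of the ID family, 9 voltage-gated sodium channels or 13 immediate early genes, with list medians of 0.37, -0.03, 0.71, 0.12, -0.35 and -0.41. Gad1 averaged 4242 ± 832 CPM in eHGT_019h mice and 2246 ± 536 CPM in hDLXI56i mice, without overlap (log2 difference 0.92, SE 0.85, limma adjusted p = 0.59).

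Within the restricted cells, 0 of 15420 genes were called, or 0%. The smallest limma adjusted p was 0.756, and 869 genes, or 5.64%, had an unadjusted p under 0.05. With limma voom on summed reads the counts were 0 called and 781 at an unadjusted p under 0.05. This fit holds the 6 mice alone, since no other enhancer had 2 mice with 5 or more such cells, so its count is to be read beside the 112 genes that 6 mice gave over all cells. It also rests on fewer cells, 27 to 45 per eHGT_019h mouse and 13 to 22 per hDLXI56i mouse. Of 7884 genes whose higher group averaged 20 CPM or more, 71.4% had a 95% interval of the log2 difference within -1 and 1. The other intervals leave room for a difference of that size. Without hDLXI56i mouse 3, 1 gene was called, Gt(ROSA)26Sor, higher in eHGT_019h mice. With mouse 3 as the 1 hDLXI56i mouse, 14 genes were called, 9 higher and 5 lower.

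**Figure D4:**
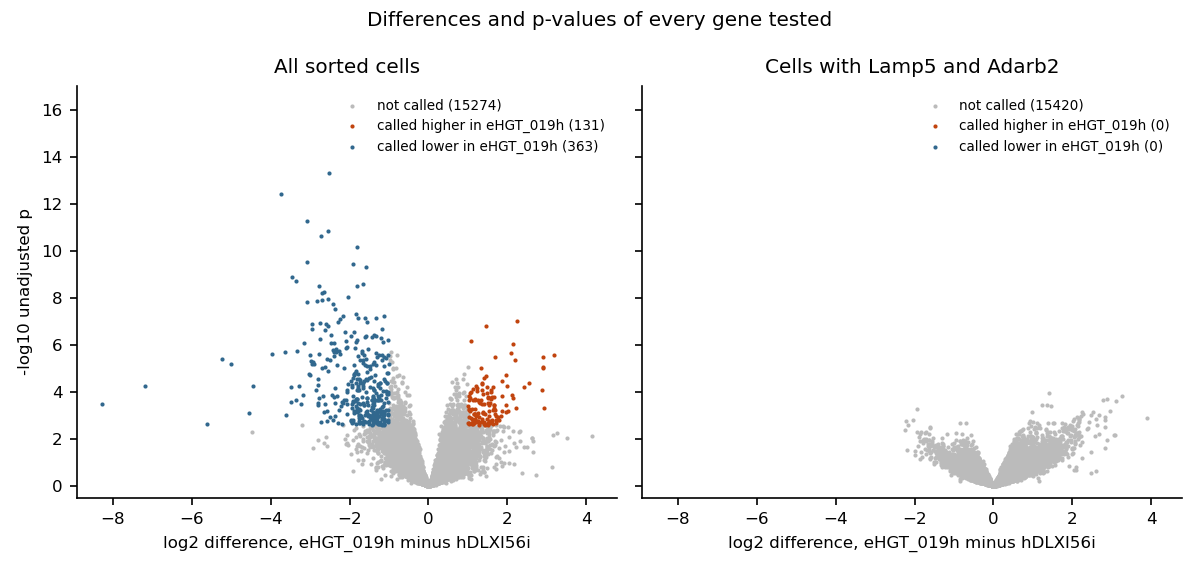
Log2 difference (x axis) and -log10 of the unadjusted p (y axis) of each gene tested, over all cells (left, fit of 33 mice) and in cells with Lamp5 and Adarb2 (right, fit of 6 mice), with called genes in colour. On the left 131 genes are called higher and 363 lower; on the right none is.

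Most of the genes that had fallen over all cells and could be tested in restricted cells had small differences there. Of the 363, 53 were under 1 CPM in all 6 mice, 262 could be tested, and 210 of these had a difference smaller than 1 on the log2 scale. Only 6.71% of all 15420 genes tested in restricted cells had a difference of 1 or more, so differences under 1 were usual there. The median of the 262 was -0.15, against -1.66 for the 363 over all cells. Sst stood at 0.883, 1.03 and 0.477 CPM in restricted cells of eHGT_019h mice and at 0 in those of hDLXI56i mice, and Pdyn was at 0 in all 6 mice. Satb1 stood at 6.21, 0.718 and 3.94 CPM in eHGT_019h mice and 0.148, 4.32 and 1.64 CPM in hDLXI56i mice, with a log2 difference of 0.64 (95% interval -0.95 to 2.23). Of the 131 genes that had risen, 123 could be tested, with a median of 1.02 against 1.44 over all cells, and 59 of them had a difference smaller than 1. The restricted cells are most of the eHGT_019h cells, so the 2 comparisons share their data, and genes chosen in the first are not tested in the second.

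Lamp5 and Adarb2 chose these cells and are given as a description. Lamp5 averaged 1933, 1833 and 1838 CPM in eHGT_019h mice and 1940, 1840 and 1988 CPM in hDLXI56i mice. Adarb2 averaged 576, 781 and 883 CPM in eHGT_019h mice and 525, 767 and 887 CPM in hDLXI56i mice. The 2 groups overlap fully in both genes. Every gene of the Lamp5 class list overlapped between the groups, with log2 differences from -0.98 to 1.19. Cplx3, a complexin of the release machinery, stood at 824, 646 and 781 CPM in eHGT_019h mice and 763, 861 and 729 CPM in hDLXI56i mice (log2 difference -0.07, 95% interval -0.41 to 0.28). Id2, an inhibitor of helix-loop-helix factors, stood at 1439, 1501 and 1481 CPM in eHGT_019h mice and 1914, 1795 and 1320 CPM in hDLXI56i mice (log2 difference -0.17, 95% interval -0.52 to 0.18). Npy had the most negative difference of the list, at 25743, 10102 and 15340 CPM in eHGT_019h mice and 38454, 44269 and 18139 CPM in hDLXI56i mice, with overlap (log2 difference -0.98, limma adjusted p = 0.849). None of the 8 tested was called, and their median was 0.13, beside 0.04 over all genes tested.

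No gene of GABA synthesis and transport or of the caudal lineage was called in restricted cells. Gad1 stood at 3270, 5240 and 5497 CPM in eHGT_019h mice and 3096, 2859 and 5042 CPM in hDLXI56i mice (log2 difference 0.36, 95% interval -0.16 to 0.88). Gad2, the other GABA-synthesizing enzyme, had a log2 difference of 0.08 (95% interval -0.25 to 0.42). Slc32a1, the vesicular GABA transporter, stood at 48.4, 49.7 and 51.7 CPM in eHGT_019h mice and 81.7, 70.04 and 55.4 CPM in hDLXI56i mice. Its groups did not overlap (log2 difference -0.44, 95% interval -0.95 to 0.06, limma adjusted p = 0.849). Prox1, a homeodomain factor kept in caudal eminence interneurons, averaged 77.2 ± 8.91 CPM in eHGT_019h mice and 69.2 ± 9.88 CPM in hDLXI56i mice (log2 difference 0.16, 95% interval -0.32 to 0.64). Dlx1 averaged 41.5 ± 5.36 CPM in eHGT_019h mice and 62.2 ± 2.83 CPM in hDLXI56i mice, without overlap (log2 difference -0.58, unadjusted p = 0.0262, limma adjusted p = 0.849). Kcnc2 had a log2 difference of 0.19 (95% interval -0.76 to 1.13), and Rab3b one of -0.20 (95% interval -0.94 to 0.53).

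Of the 12 GABA-A receptor subunits, 4 had an unadjusted p under 0.05 in restricted cells, beside 5.64% of all genes tested there, all with higher values in eHGT_019h mice and none called. Gabra2 stood at 34.2, 35.5 and 26.4 CPM in eHGT_019h mice and 14.1, 6.08 and 13.6 CPM in hDLXI56i mice (95% interval of the log2 difference 0.68 to 2.33, limma adjusted p = 0.81). Gabrb1 had a log2 difference of 0.61. These subunits form part of the receptor channel that GABA opens, and the list's median was 0.20.

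**Figure D5:**
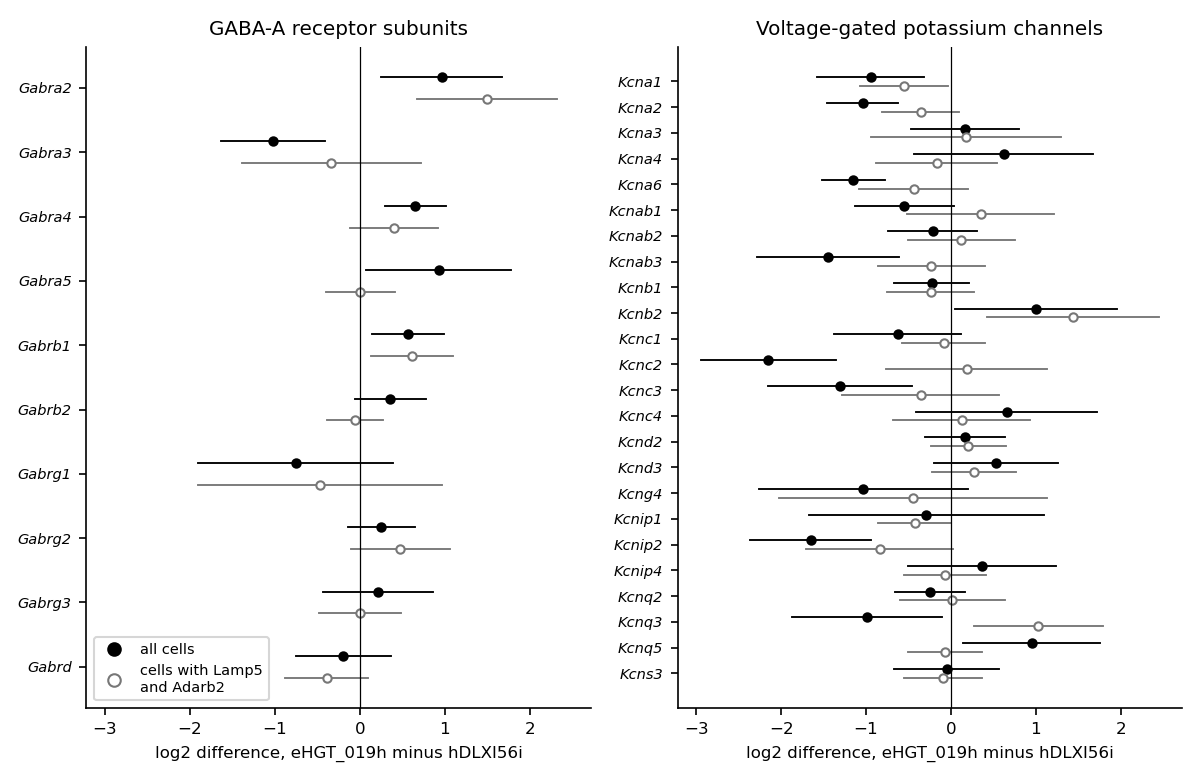
Log2 difference between eHGT_019h and hDLXI56i mice (x axis) of 10 GABA-A receptor subunits (left) and voltage-gated potassium channel genes (right), over all cells (filled, upper) and in cells with Lamp5 and Adarb2 (open, lower), with 95% intervals from limma. Kcnc2 is at -2.15 over all cells and 0.19 in restricted cells, while Gabrb1 is at 0.57 over all cells and 0.61 in restricted cells.

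The genes with the smallest p in restricted cells, named after their values were seen, were Ddx6, Apoe, Tenm2 and Nrg1 among genes of at least 20 CPM. Ddx6, an RNA helicase of processing bodies, stood at 69.0, 85.3 and 103 CPM in eHGT_019h mice and 27.5, 33.0 and 33.3 CPM in hDLXI56i mice (log2 difference 1.41, SE 0.24, limma adjusted p = 0.756). Apoe, a lipid carrier made mainly by glia, stood at 122, 120 and 77.1 CPM in eHGT_019h mice and 52.1, 38.1 and 31.5 CPM in hDLXI56i mice (log2 difference 1.37, SE 0.27, limma adjusted p = 0.797). For each of the 4 the mice of the 2 groups did not overlap, as for 1645 of the 15420 genes, or 10.7%. None passes adjustment over all genes.

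The Ndnf part of the restricted cells varied from mouse to mouse. Ndnf reached 10 CPM in 33.3%, 70.4% and 56.7% of the restricted cells of eHGT_019h mice and in 18.2%, 27.8% and 46.2% of those of hDLXI56i mice, with overlap (exact permutation p = 0.2, adjusted p = 0.4 over 8 markers). Its mean was 108, 446 and 358 CPM in eHGT_019h mice and 62.9, 72.7 and 310 CPM in hDLXI56i mice (log2 difference 1.19, 95% interval -0.45 to 2.84). Among restricted cells with Ndnf under 10 CPM, Npy stood at 29101, 18659 and 20319 CPM in eHGT_019h mice and 41360, 48655 and 23733 CPM in hDLXI56i mice, and Reln, the secreted glycoprotein reelin, at 21.97, 85.4 and 116 CPM in eHGT_019h mice and 10.7, 17.2 and 33.0 CPM in hDLXI56i mice. Among those with Ndnf at 10 CPM or more, where hDLXI56i mouse 1 had 4 cells and was left out, Reln stood at 386, 968 and 1215 CPM in eHGT_019h mice and 972 and 1819 CPM in hDLXI56i mice. In neither subset did limma call a gene.

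RNA of other cell types was present at low levels, and the marker sums of oligodendrocytes and astrocytes were higher in eHGT_019h mice. Slc17a7 reached 10 CPM in 20 of 102 restricted eHGT_019h cells. It did so in 0 of 53 restricted hDLXI56i cells, where the exact 95% binomial interval reaches 6.72% (counting error only). Its mean in restricted cells was 11.9, 11.6 and 2.09 CPM in eHGT_019h mice and 0.0724, 0 and 0 CPM in hDLXI56i mice (log2 difference 2.96, SE 0.64, limma adjusted p = 0.81). The 11 glutamatergic markers together overlapped, with sums of 109 to 153 CPM in eHGT_019h mice and 82.5 to 181 CPM in hDLXI56i mice. Of the 7 tested, 5 had a positive difference, the lowest was -0.75, for Slc30a3, and none was called. The 6 oligodendrocyte lineage markers summed to 48.6 to 238 CPM in eHGT_019h mice and 4.62 to 41.8 CPM in hDLXI56i mice. The 5 astrocyte markers summed to 25.5 to 34.5 CPM in eHGT_019h mice and 7.61 to 11.3 CPM in hDLXI56i mice. The 5 microglia markers summed to at most 4.32 CPM in eHGT_019h mice and 0.171 CPM in hDLXI56i mice, and the 4 vascular markers to at most 1.19 CPM in eHGT_019h mice and 2.61 CPM in hDLXI56i mice. The progenitor marker Cspg4 was at or near 0 in every mouse. All 4 tested oligodendrocyte markers had a positive difference, with a median of 2.84, and none was called. Over all cells, Gfap, an intermediate filament of astrocytes, rose to 2.53, 2.29 and 1.44 CPM in eHGT_019h mice, against 0.785, 0 and 0 CPM in hDLXI56i mice (limma adjusted p = 0.0107), and lost its call without hDLXI56i mouse 2, in the fit of the 6 mice alone (0.235) and without both hDLXI56i mice low in Gt(ROSA)26Sor (0.0554). The part of such RNA in the genes that differed was not tested, other than by leaving out cells with Slc17a7 at 10 CPM or more, after which 91 genes were called higher and 288 lower over all cells.

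Lhx6 was also seen in a few restricted cells. It reached 10 CPM in 5 of 102 eHGT_019h cells, 2.22%, 3.70% and 10% by mouse, and in 0 of 53 hDLXI56i cells, where the same interval again reaches 6.72%. Nkx2-1, a medial eminence factor that most cortical interneurons switch off, averaged 0, 3.03 and 2.01 CPM in the restricted cells of eHGT_019h mice and 0 in those of hDLXI56i mice (log2 difference 1.20, limma adjusted p = 0.849).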

How the data were processed

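Single-cell RNA-seq of SYFP2-sorted neurons was deposited as 1 table of CPM, in which the authors scaled each cell to a total of 1000000, per the file's values. Per the submitters' processing notes STAR and mm10 were used, with no version, and the counting step is not given in the sources used here. All values above 0 were whole reads within 0.01 read, once multiplied by the depth recovered from each cell's lowest step.

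Cells were grouped by the genotype label and mice by the mouse number in the title, and CPM were averaged per mouse. Genes that reached 1 CPM in 2 or more of these 6 mice were tested with limma 3.58.1 (R 4.3.3, statmod 1.5.0; trend and robust options) on log2(mean CPM + 1), with Benjamini-Hochberg adjustment over all genes tested. Mice with fewer than 5 restricted cells did not enter the restricted fit. Shares were compared by 2-sided exact permutation tests (scipy 1.17.1). Nothing in the labels says that mice came from separate litters or days, so p-values measure only the spread between the mice in each fit. In the all-cell limma fit that spread is shared over 33 mice of all enhancers. In the restricted fit and the permutation tests it is that of the 6 mice.

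Named genes are the members of gene lists by role and, by a rule, the 12 largest called differences in each direction. The rule asks for at least 20 CPM in the higher group and no overlap between mice. It leaves out Xist, Tsix, Y-linked genes, and mitochondrial and ribosomal protein genes. Symbols that start with Gm or LOC and a digit, or end in Rik or -ps, are also left out. Other X-linked genes, such as Sh3bgrl, stay in. Gt(ROSA)26Sor, Xist, Ddx3y, Ddx6, Apoe, Tenm2 and Nrg1 were named after their values were seen. Some genes of the lists and of this rule enter the counts, medians and sums but are not reported here by name. The comparison and the lists were chosen with earlier results of these data known. The planned count test of summed reads was not run, and limma voom took its place. Positions are those of GENCODE M21. Doublets were not searched for, since cells were sorted singly into tubes.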

Additional observations from a re-analysis of the deposited data

How the results depend on the processing

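The difference in the share of cells with Lamp5 and Adarb2 stayed between 34.6 and 48.1 percentage points as each mouse was left out, and between 41.9 and 43.5 under the other alternatives run. Of the 10 marker shares, 6 to 8 had groups that did not overlap. Over all cells, 494 genes were called, and 335 to 741 as each mouse was left out. The count was 177 with a pseudocount of 10 CPM and 112 in the fit of the 6 mice alone. It was 307 with limma voom on summed reads and 233 without both hDLXI56i mice low in Gt(ROSA)26Sor, 2 alternatives added after seeing the data. Averaging log2 values over cells gave 525 calls, of which 64.4% were higher in eHGT_019h mice, beside 26.5% of the 494. Other alternatives gave 375 to 507. In restricted cells the count was 0, from 0 to 1 as each mouse was left out, and 14 without both of those hDLXI56i mice. The cause of these shifts was not tested, apart from the fewer mice in the smaller fits. Of the 24 leading genes, 14 to 24 kept their call under the alternatives on pseudocount, filter, averaging, centring, voom and cells left out. No called gene of the rule or the lists changed sign under the alternatives run, and the sign of the other called genes was not compared. No paired analysis was possible because the mice of the groups share no replicate number. The planned edgeR test was not run, and in restricted cells the fit of the 6 mice alone is the one reported. The restricted comparison rests on 13 to 45 cells per mouse.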
